A study of Homo sapiens with 4 samples.

Results

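The human mitochondrial genome is a small circular DNA that encodes 13 subunits of the respiratory chain, 2 ribosomal RNAs and the transfer RNAs needed to translate them. Its genes were followed here in bulk RNA sequencing of J-gammal cells, a human cell line, after knockdown of FYB1. The members were the genes of the deposited expression table whose Ensembl identifier lies on chromosome M in GENCODE 29, and 36 of the 28274 genes in the table met that rule. They comprised 13 protein-coding genes, both ribosomal RNA genes and 21 of the 22 annotated transfer RNA genes. MT-TK was not analysed here. By strand, 27 members lie on the plus strand of the reference sequence and 9 on the minus strand, which holds MT-ND6 and 8 transfer RNA genes.

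The knockdown group held 2 libraries of J-gammal cells labelled as FYB1 knockdown, with sh-FYB1 in their titles, and the control group held 2 libraries of the same line labelled as untreated, with NC in their titles. FYB1 encodes an adaptor protein of T cell receptor signalling. The labels do not state if 1 short hairpin RNA or several were used, what NC stands for, or how many cultures were grown. Thus p-values rest only on the spread between these libraries, and those of single genes partly on the spread of other genes. All libraries come from 1 cell line, and a culture labelled as untreated does not control for the delivery of a hairpin.

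Mitochondrial DNA is transcribed from both strands as long precursor RNAs. The transfer RNAs lie between most of the other genes, and enzymes cut the precursors at their ends, which releases the messenger and ribosomal RNAs. None of the genes has an intron. Most mitochondrial messenger RNAs then receive a short poly(A) tail, while mature human MT-ND6 messenger RNA carries little or none. The encoded proteins assemble in the inner membrane with nuclear-encoded subunits into complexes I, III, IV and V, so each of these complexes draws on both genomes. In bulk RNA, fewer mitochondria or cells of a kind and less RNA per mitochondrion or cell cannot be told apart.

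Expression values were FPKM, which scale the reads of a gene by its length and by the library total, and the whole reads behind them were recovered from the values. Recovered reads summed to between 16693113 and 20251864 per library, of which 693312 to 1040115 fell on the mitochondrial genome. FYB1 (chr5:39105255-39274528, minus strand, hg38) stood at 6.18 and 4.53 FPKM in the knockdown libraries, against 17.6 and 20.1 FPKM in the controls. Its log2 fold change was -1.65 ± 0.15 (SE, n = 2 per group). Here and below, such a SE draws partly on the spread of other genes and is not that of the gene alone. Limma-trend, the test applied to all genes, gave FYB1 an adjusted p of 0.0398. That call was lost when either knockdown library was left out or every gene above 0 was tested, while limma-voom on the recovered reads gave an adjusted p of 0.000419. All 10 T cell markers listed were above 1 FPKM on average, and their summed level was 1302 and 1541 FPKM in the knockdown libraries and 1660 and 1564 FPKM in the controls. None of 4 myeloid markers and none of the 3 epithelial and stromal markers in the table reached 1 FPKM. Of 4 B cell markers, CD79A alone did, and the 4 summed to 11.2 and 15.9 FPKM in the knockdown libraries and 24.7 and 21.4 FPKM in the controls.

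The genes of the mitochondrial genome took a larger share of the reads in the knockdown libraries. They held 4.92% and 5.14% of the recovered reads in the knockdown libraries, against 4.09% and 4.03% in the controls. The groups did not overlap, and the mean share was 5.03% ± 0.149 in the knockdown libraries and 4.06% ± 0.0451 in the controls (SD, n = 2 each), a ratio of 1.24. An exact two-sided permutation test over the libraries gave p = 0.333, the smallest that 2 libraries against 2 can give. The coding genes held 3.62% and 3.81% of the reads in the knockdown libraries, against 3.004% and 3.022% in the controls. The ribosomal RNA genes held 1.25% and 1.28% in the knockdown libraries, against 1.05% and 0.974% in the controls. The transfer RNA genes held 0.0505% and 0.0483% in the knockdown libraries, against 0.0380% and 0.0318% in the controls. In all 3 classes both knockdown libraries were above both controls.

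**Figure D1:**
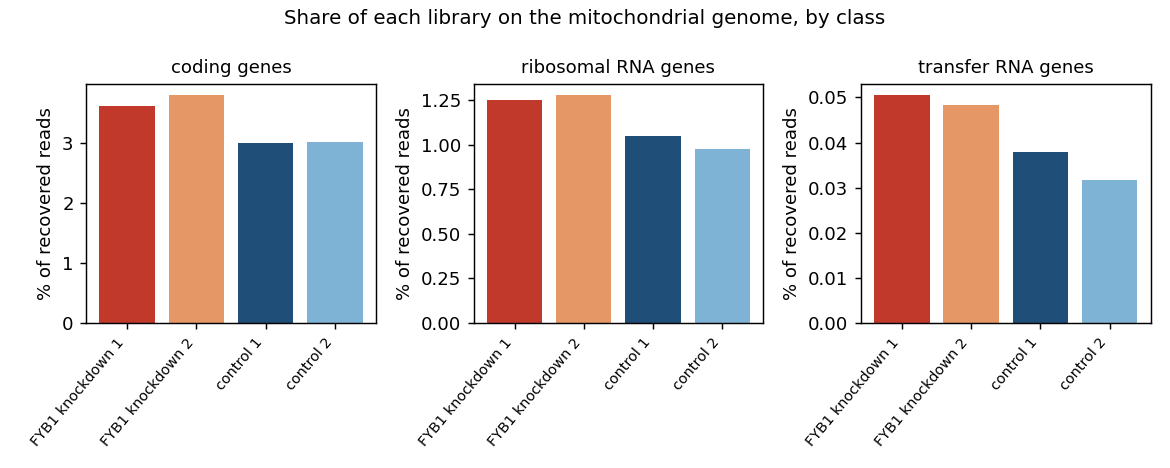
Percentage of each library's recovered reads on the coding, ribosomal RNA and transfer RNA genes of the mitochondrial genome, with 1 bar per library and its own axis from 0 in each panel. Both knockdown bars are above both control bars in every panel, from 3.62% and 3.81% against 3.004% and 3.022% for the coding genes down to 0.0505% and 0.0483% against 0.0380% and 0.0318% for the transfer RNA genes.

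The size of this difference depended on the library total. The FPKM values were scaled by the authors to totals of 18436617 and 20480491 reads in the knockdown libraries and 16648943 and 16789004 reads in the controls. The reads recovered from the gene table summed to 16693113 and 20251864 in the knockdown libraries and 17597678 and 17216663 in the controls. The sums were thus below the authors' totals in both knockdown libraries and above them in both controls, which lowers knockdown values relative to controls in FPKM compared with shares of the summed reads. A gene higher in the knockdown libraries thus has a smaller gap in FPKM, and a gene lower there a larger one. Across the 33 members with a mean of at least 1 FPKM, the median log2 fold change was 0.17 on the authors' totals and 0.31 on the summed reads. The same medians over all 13172 genes tested were -0.03 and 0.08. Statements below that the groups overlapped or were separate in FPKM rest on the authors' totals.

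No gene of the mitochondrial genome passed the test. Limma-trend on log2(FPKM + 1) called 0 of the 33 members at an adjusted p under 0.05, where it called 27 of all 13172 genes tested, or 0.205%. At an unadjusted p under 0.05 it counted 2 members, against 23.4% of all genes. Limma-voom on the recovered reads also called 0 members, where it called 7.74% of all genes, and it counted 4 members at an unadjusted p under 0.05, against 28.4% of all genes. The lowest adjusted p among the members was 0.107 by limma-trend, for MT-TR, and 0.0925 by limma-voom, for MT-TP.

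The signs of the differences were uneven. The knockdown mean was higher for 27 of the 33 tested members, against 45.7% of all tested genes. On the authors' totals, both knockdown libraries were above both controls for 14 members, against 26.0% of all tested genes. The reverse held for 0 members, against 34.6% of all tested genes. All 15 coding and ribosomal RNA genes had the higher mean in the knockdown libraries on the authors' scaling, and 9 of 15 did after quantile normalization, which set 5 of the others to 0. They share their libraries and their precursor RNAs, so they are not independent observations. Relative to the control mean, these 15 genes had a median of 0.04 for knockdown library 1 and of 0.26 for knockdown library 2 on the log2 scale. Control 1 lay a median of 0.06 above control 2, and both define that mean. The median log2 fold change of the 15 genes, 0.17, was accordingly 0.26 without knockdown library 1. It was 0.04 without knockdown library 2, when 10 of the 15 were still higher. Over all tested genes, the lower and upper quartiles of the log2 fold change were -0.24 and 0.16.

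In level, all coding and ribosomal RNA members but MT-ATP8 were among the 43 genes with the highest mean FPKM. The library kit named in the labels selects polyadenylated RNA, so these levels, those of the ribosomal RNAs included, are not abundances in the cells. Members made up 8 of the 10 genes with the highest mean FPKM, 1 of them a transfer RNA gene, and 12 of the top 20. In the order of mean FPKM, which is a level per length, MT-CO2 came first, followed by MT-CO1, MT-RNR2, MT-ND4, MT-CO3, MT-ND4L, MT-ATP6, MT-CYB, MT-RNR1, MT-ND3, MT-ND2, MT-ND6, MT-ND1, MT-ND5 and MT-ATP8. Over the 4 libraries, MT-CO2 lay wholly above MT-CO1, MT-RNR2 above MT-ND4, MT-ATP6 above MT-CYB, MT-CYB above MT-RNR1, and MT-ND5 above MT-ATP8. The other 9 neighbours in that order had ranges that overlapped.

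**Figure D2:**
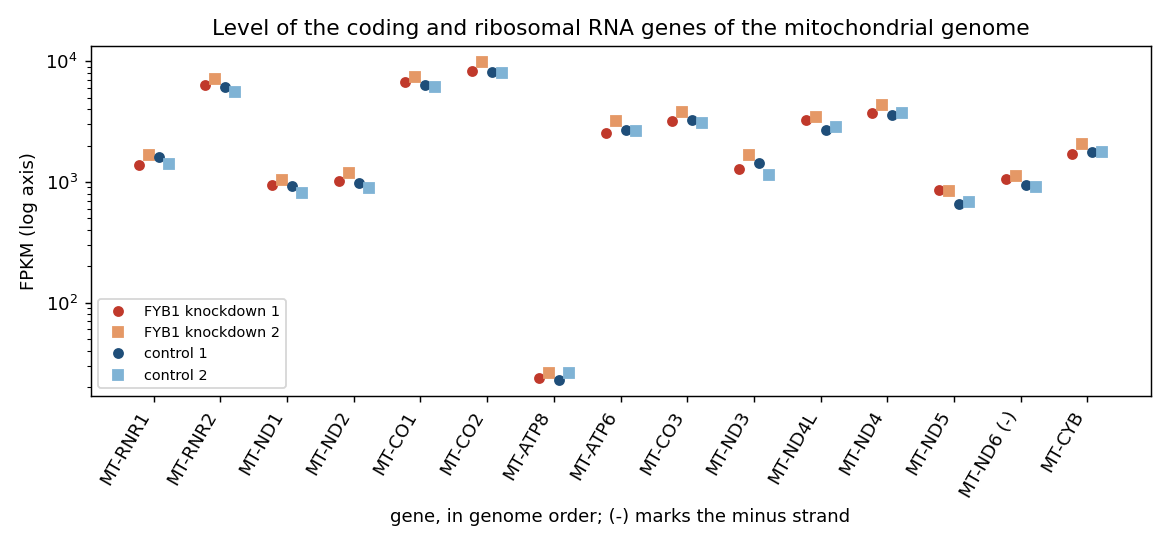
FPKM on a log axis for the 15 coding and ribosomal RNA genes in genome order, with 1 point per library. All genes but MT-ATP8 sit between 656 and 9909 FPKM, MT-ATP8 sits between 22.9 and 26.2 FPKM, and the 4 libraries stay close together within each gene.

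Both ribosomal RNAs of the mitochondrial ribosome come from the plus strand, on either side of MT-TV, at chrM:648-1601 (MT-RNR1, small subunit) and chrM:1671-3229 (MT-RNR2, large subunit). MT-RNR2 stood at 6419 and 7077 FPKM in the knockdown libraries, against 6126 and 5535 FPKM in the controls, with no overlap and a log2 fold change of 0.21 ± 0.32 (SE). MT-RNR1 stood at 1376 and 1687 FPKM in the knockdown libraries, against 1607 and 1419 FPKM in the controls. The MT-RNR1 libraries of both groups were interleaved and its log2 fold change was 0.01 ± 0.24. The ratio of MT-RNR2 to MT-RNR1 was 4.664 and 4.196 in the knockdown libraries, against 3.81 and 3.90 in the controls, again without overlap. This ratio was not planned and was not tested.

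Complex I, the NADH dehydrogenase, has 7 mitochondrially encoded subunits. MT-ND5, the last plus-strand gene before MT-ND6 (chrM:12337-14148), stood at 858 and 847 FPKM in the knockdown libraries, against 656 and 676 FPKM in the controls. Its reads were 28666 and 31446 in the knockdown libraries, against 19795 and 20564 in the controls. The knockdown libraries of this gene lay close together and above both controls, at a ratio of means of 1.28. Its log2 fold change of 0.36 ± 0.19 (SE) had the highest value of the 15 genes. That SE draws on genes of similar level and is not the spread of these libraries alone. For MT-ND5 the adjusted p was 0.292 by limma-trend and 0.147 by limma-voom. Over the 20 alternatives its log2 fold change ran between 0.33 and 0.72 and its adjusted p between 0.0481 and 0.897, the lowest by limma-voom without knockdown library 2, the one alternative that called it.

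MT-ND4L (chrM:10470-10766) stood at 3249 and 3472 FPKM in the knockdown libraries, against 2688 and 2854 FPKM in the controls, a log2 fold change of 0.28 ± 0.27. MT-ND4 stood at 3732 and 4309.7 FPKM in the knockdown libraries, against 3577 and 3764 FPKM in the controls, and its groups overlapped. Both are translated from 1 messenger RNA in which the end of the MT-ND4L frame and the start of the MT-ND4 frame share 7 bases. The last 60 bases of MT-ND4L are shown to make that overlap visible, with the shared bases in capitals (GENCODE 29 transcript, GRCh38, plus strand).
MT-ND4L, last 60 bases: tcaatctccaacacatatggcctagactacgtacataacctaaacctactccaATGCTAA
The ratio of MT-ND4L to MT-ND4 FPKM was 0.871 and 0.806 in the knockdown libraries, against 0.751 and 0.758 in the controls. It was not a planned ratio and was not tested.

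The other complex I subunits, MT-ND1, MT-ND2, MT-ND3 and MT-ND6, had log2 fold changes between those of MT-ND4 and MT-ND4L. MT-ND2 stood at 1012 and 1175 FPKM in the knockdown libraries, against 982 and 884 FPKM in the controls. MT-ND1 stood at 935 and 1038 FPKM in the knockdown libraries, against 921 and 816 FPKM in the controls. Neither gene overlapped between groups. MT-ND3 stood at 1276 and 1665 FPKM in the knockdown libraries, against 1449.7 and 1150.5 FPKM in the controls, and its libraries were interleaved. MT-ND6, the one coding gene of the minus strand (chrM:14149-14673), stood at 1049 and 1109.9 FPKM in the knockdown libraries, against 948 and 899.6 FPKM in the controls. It did not overlap between groups and its log2 fold change was 0.22 ± 0.20. The library kit named in the labels does not mark strand, so opposite-strand RNA can count as reads of MT-ND6.

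Complex III has the single mitochondrial subunit cytochrome b. Its gene MT-CYB stood at 1693 and 2076 FPKM in the knockdown libraries, against 1785 and 1759.6 FPKM in the controls. On the authors' totals, knockdown library 1 was below both controls and knockdown library 2 above both, and the log2 fold change was 0.08 ± 0.25. The recovered reads of MT-CYB were 35623 and 48520 in the knockdown libraries, against 33918 and 33707 in the controls. Knockdown library 1 was thus above both controls in reads, although it had the fewest recovered reads in total.

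Complex IV, cytochrome c oxidase, takes its 3 core subunits from mitochondrial DNA. MT-CO1, the heme-binding subunit, stood at 6693 and 7453 FPKM in the knockdown libraries, against 6412 and 6131 FPKM in the controls. MT-CO2, which receives electrons from cytochrome c, stood at 8326 and 9909 FPKM in the knockdown libraries, against 8215 and 7971 FPKM in the controls. Both groups were separate for these 2 genes, but knockdown library 1 was close to control 1, and the log2 fold changes were 0.17 ± 0.32 and 0.17 ± 0.35. MT-CO3 stood at 3198 and 3793 FPKM in the knockdown libraries, against 3236 and 3099 FPKM in the controls, with overlap.

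Complex V, the ATP synthase, has 2 mitochondrial subunits, whose genes overlap. MT-ATP6, which forms part of the proton channel, stood at 2566 and 3182 FPKM in the knockdown libraries, against 2714 and 2651 FPKM in the controls. Knockdown library 1 was below both controls on the authors' totals. In recovered reads it was above both, with 32220 against 30772 and 30313, although it had the fewest reads in total. MT-ATP8 stood at 23.6 and 26.2 FPKM in the knockdown libraries, against 22.9 and 26.2 FPKM in the controls, from only 90 and 111 reads in the knockdown libraries and 79 and 91 reads in the controls. Both proteins are translated from 1 messenger RNA, yet the ratio of MT-ATP8 to MT-ATP6 was 0.00919 and 0.00823 in the knockdown libraries, against 0.00845 and 0.00988 in the controls. MT-ATP8 (chrM:8366-8572, plus strand) is shown whole because 46 of its 207 bases, in capitals, also belong to MT-ATP6, which leaves 161 bases in no other annotated gene.
MT-ATP8: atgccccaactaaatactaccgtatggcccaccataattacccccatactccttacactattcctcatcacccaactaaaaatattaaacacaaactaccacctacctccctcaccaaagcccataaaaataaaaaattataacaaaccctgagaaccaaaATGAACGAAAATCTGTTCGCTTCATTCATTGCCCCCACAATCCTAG
The sources used here do not give how reads that span both genes were assigned, so the level of MT-ATP8 is uncertain. The same limit holds for the 7 bases shared by MT-ND4L and MT-ND4.

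**Figure D3:**
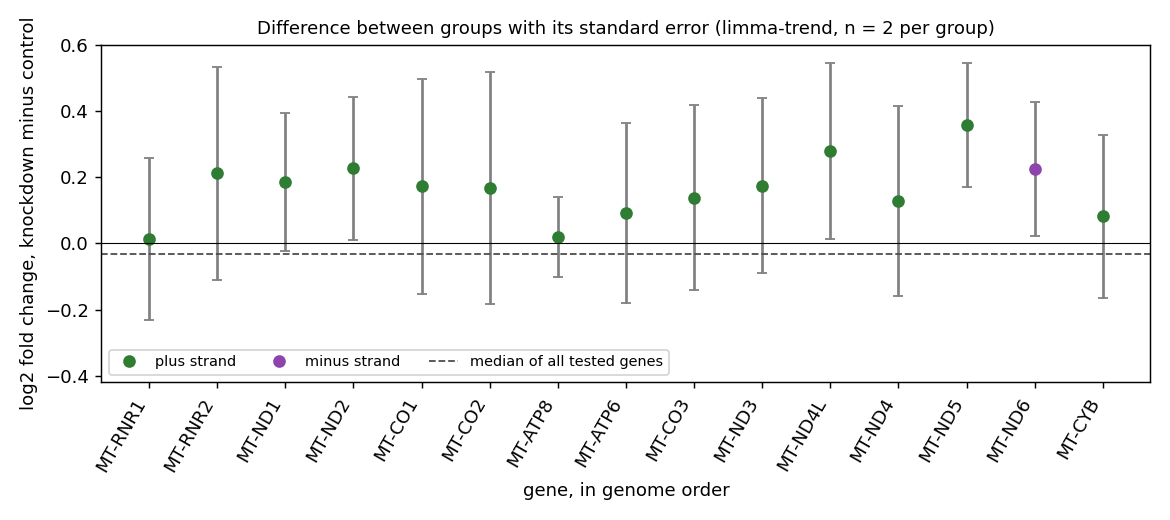
Log2 fold change of knockdown over control for the 15 coding and ribosomal RNA genes in genome order, with the limma-trend standard error as bars and the annotated strand as colour. All 15 points lie above 0, between 0.01 for MT-RNR1 and 0.36 for MT-ND5, and only the bars of MT-ND2, MT-ND4L, MT-ND5 and MT-ND6 stay above 0.

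Ratios between members of 1 library do not depend on its total, and those by class hardly separated the groups. The summed FPKM of both ribosomal RNAs over that of the coding genes was 0.225 and 0.219 in the knockdown libraries, against 0.230 and 0.213 in the controls (exact two-sided permutation p = 1). The ratio of MT-ND6 to the 12 plus-strand coding genes was 0.0313 and 0.0285 in the knockdown libraries, against 0.0290 and 0.0283 in the controls (exact two-sided permutation p = 0.667). Strand here is that of the annotation, because the reads do not mark it, so this is not a ratio of the output of both strands. By class, the median log2 fold change was 0.17 for plus-strand coding genes, 0.11 for the ribosomal RNA genes, 0.07 for plus-strand transfer RNA genes and 0.29 for minus-strand transfer RNA genes. These differences between classes were not tested, and the order of the transfer RNA strands was not stable. Without knockdown library 2 the plus-strand transfer RNA median was 0.47 and the minus-strand one 0.26. Without control 1 they were 0.33 and 0.41, at a mean of at least 5 FPKM 0.51 and 0.31, and with length and GC trends removed -0.23 and -0.012, in the same order. Along the plus strand, the start of the 12 coding genes and their log2 fold change had a Spearman rho of -0.11, given as a description over genes that share libraries and precursor.

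Within the coding reads, MT-ND5 took 4.74% and 4.08% in the knockdown libraries, against 3.74% and 3.95% in the controls. MT-ND4L took 2.941% and 2.738% in the knockdown libraries, against 2.514% and 2.736% in the controls. Both knockdown shares were above both control shares for these 2 genes, though for MT-ND4L only by a margin within its last digit. In the other direction, MT-CYB took 5.89% and 6.29% in the knockdown libraries, against 6.42% and 6.48% in the controls. MT-ATP6 took 5.33% and 5.75% in the knockdown libraries, against 5.82% and 5.83% in the controls. With MT-ATP8, 3 genes had lower shares in both knockdown libraries, and the groups overlapped for the other 8. MT-ATP8 took 0.01488% and 0.01439% in the knockdown libraries, against 0.01494% and 0.01749% in the controls, from few reads. An exact two-sided permutation test gives a separation of 2 libraries from 2 no p below 0.333. The shares also divide a common total, so a higher share of some genes goes with a lower share of others.

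The transfer RNA genes form 2 sets by their reads. MT-TN, MT-TC, MT-TP and MT-TY, all on the minus strand, held 98.2% of the transfer RNA reads, and each had at least 209 reads in every library. The other 17 averaged between 0.5 and 39.25 reads, and none had more than 44 in a library. The library kit named in the labels selects polyadenylated RNA and does not mark strand, so reads from precursors or from the opposite strand count as reads of the gene, and these counts are not levels of mature transfer RNA.

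The 4 well-covered genes are shown 5′ to 3′ with the anticodon in capitals (GENCODE 29 transcripts, GRCh38, minus strand). MT-TN, MT-TC and MT-TY stand in a cluster between MT-ND2 and MT-CO1, at chrM:5657-5729, chrM:5761-5826 and chrM:5826-5891, and MT-TP lies at chrM:15956-16023 beside the control region. MT-TA (chrM:5587-5655) is added because it is the next gene of the same cluster and strand but had almost no reads.
MT-TN, asparagine: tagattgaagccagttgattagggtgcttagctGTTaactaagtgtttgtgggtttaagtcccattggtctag
MT-TC, cysteine: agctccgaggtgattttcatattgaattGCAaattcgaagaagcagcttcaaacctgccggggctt
MT-TY, tyrosine: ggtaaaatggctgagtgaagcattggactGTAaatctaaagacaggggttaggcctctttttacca
MT-TP, proline: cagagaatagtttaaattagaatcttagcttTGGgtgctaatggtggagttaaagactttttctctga
MT-TA, alanine: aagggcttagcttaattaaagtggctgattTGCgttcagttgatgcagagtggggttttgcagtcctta
The stretch of 31 bases between MT-TN and MT-TC belongs to no annotated gene and is where light-strand replication starts. MT-TC and MT-TY share 1 base, 12 bases separate MT-TY from MT-CO1, and 1 base separates MT-TA from MT-TN.

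All 4 well-covered genes were higher in both knockdown libraries on the authors' scaling, and none was called by limma-trend or limma-voom on all 4 libraries. MT-TN, the transfer RNA gene for asparagine, had 4557 and 5284 reads in the knockdown libraries, against 3671 and 2751 in the controls. MT-TC, for cysteine, had 2050 and 2663 reads in the knockdown libraries, against 1727 and 1516 in the controls. The controls of MT-TN differed from each other by more than its knockdown libraries did. MT-TP, for proline, had 1361 and 1350 reads in the knockdown libraries, against 935 and 881 in the controls. MT-TY, for tyrosine, had 289 and 336 reads in the knockdown libraries, against 229 and 209 in the controls. On the log2(FPKM + 1) scale their fold changes were 0.41 ± 0.29 for MT-TN, 0.31 ± 0.24 for MT-TC, 0.36 ± 0.20 for MT-TP and 0.29 ± 0.15 for MT-TY (SE). With length and GC trends removed they were 0.11, 0.038, -0.0030 and -0.012, in the same order. With limma-voom, the adjusted p was 0.105 for MT-TN, 0.147 for MT-TC and 0.0925 for MT-TP, the last at 0.0209 without knockdown library 2. MT-TA, at the other extreme, had 0 and 2 reads in the knockdown libraries, against 3 and 0 in the controls.

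**Figure D4:**
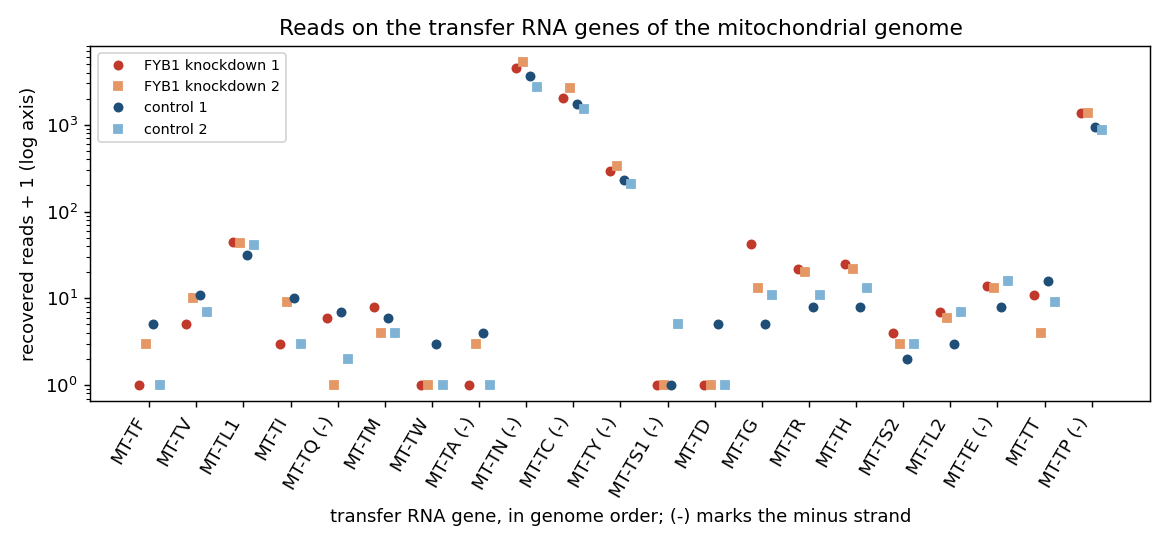
Recovered reads plus 1, on a log axis, for the 21 transfer RNA genes in genome order, with 1 point per library and (-) for the minus strand. MT-TN, MT-TC, MT-TY and MT-TP stand at 209 reads or more in every library, and the other 17 genes stay at 44 reads or fewer.

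Among the sparsely covered genes, 4 were picked after their values were seen, and each rests on few reads. MT-TR, for arginine, had 21 and 19 reads in the knockdown libraries, against 7 and 10 in the controls, a log2 fold change of 0.95 ± 0.18 (SE), and limma-trend gave an adjusted p of 0.107. MT-TH, for histidine, had 24 and 21 reads in the knockdown libraries, against 7 and 12 in the controls, with an adjusted p of 0.132. Both groups were separate for these 2 genes. With limma-voom the log2 fold changes were 0.98 ± 0.51 for MT-TR and 1.02 ± 0.51 for MT-TH (SE). The adjusted p-values by limma-voom were 0.232 and 0.211, in the same order. MT-TG, for glycine, had 41 and 12 reads in the knockdown libraries, against 4 and 10 in the controls, and knockdown library 1 stood far above the other libraries. Its log2 fold change was 1.44 ± 0.64 (SE). MT-TT, for threonine, had the lower mean in the knockdown libraries, with 10 and 3 reads in the knockdown libraries, against 15 and 8 in the controls. MT-TW, MT-TS1 and MT-TD were below the filter of a mean of 1 FPKM and had reads in 1 library each, all of them controls, at 2, 4 and 4 reads. Altogether 6 members had 0 reads in at least 1 library.
MT-TR, arginine: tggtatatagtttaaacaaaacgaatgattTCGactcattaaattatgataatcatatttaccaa
MT-TH, histidine: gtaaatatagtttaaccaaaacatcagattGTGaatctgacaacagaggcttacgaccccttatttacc
MT-TG, glycine: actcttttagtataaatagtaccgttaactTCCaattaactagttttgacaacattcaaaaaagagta
MT-TR, MT-TG and MT-TH, shown with the anticodon in capitals, lie directly against the coding genes on either or both sides, with 0 bases between MT-TG and MT-CO3 and MT-ND3, between MT-TR and MT-ND3 and MT-ND4L, and between MT-ND4 and MT-TH.

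Copies of mitochondrial DNA in the nuclear genome can draw reads from these genes. The table held 51 nuclear copies chosen by symbol, 47 annotated as pseudogenes and 4 as protein-coding genes of the MTRNR2L family, which had at most 8 reads in a library. Of the 51, 3 averaged at least 20 reads and held 97.9% of their reads. All 3 stand on chromosome 1. MTATP6P1 (chr1:633696-634376) differs from MT-ATP6 at 10 of 681 bases, an identity of 98.5%. It had 1814 and 2662 reads in the knockdown libraries, against 2171 and 1617 in the controls, or 5.630% and 5.998% of the reads of MT-ATP6 in the knockdown libraries, against 7.06% and 5.33% in the controls. MTND2P28 (chr1:629640-630683, 98.4% identical to MT-ND2) had 1367 and 1871 reads in the knockdown libraries, against 1175 and 1061 in the controls, which is 7.03% and 7.46% of the reads of MT-ND2 in the knockdown libraries, against 6.90% and 6.86% in the controls. MTCO1P12 (98.7% identical to MT-CO1) had 450 and 684 reads in the knockdown libraries, against 516 and 485 in the controls. MTND4P12, the next copy by reads, had at most 12 in a library. These shares count only reads assigned to the copies. The sources used here do not give how reads that match both were handled, so the uncertainty of MT-ATP6, MT-ND2 and MT-CO1 is not bounded by them. Adding the reads of all 51 copies to the members left the ratio of the library shares at 1.24.

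The nuclear-encoded partners of the mitochondrial subunits mostly had lower means in the knockdown libraries. Of 72 nuclear subunits of complexes I, III, IV and V, 71 were tested, and 67 of these had the lower mean in the knockdown libraries, against 54.3% of all tested genes, with a median log2 fold change of -0.43. Limma-trend called 0 of them, with 33 at an unadjusted p under 0.05, against 23.4% of all tested genes. Limma-voom called 25 lower and 0 higher, against 5.8% of all tested genes called lower. The knockdown libraries lay below both controls for 55 of the 71 and above both for 1, against 34.6% and 26.0% of all tested genes. The limma-voom calls depended on single libraries. It called 0 subunits lower without knockdown library 1, where it called 0.562% of all genes lower, and 0 without control 1, against 0.828% of all genes. Without control 2 it called 13 lower, against 2.8% of all genes, and without knockdown library 2 it called 51, against 19.7% of all genes. Relative to the control mean, the median subunit was at -0.59 in knockdown library 1 and -0.24 in knockdown library 2. On the authors' totals, knockdown library 1 thus had the smaller median excess of mitochondrial RNA and the larger median deficit of these partners. Its authors' total was 18436617 against 16693113 recovered reads, where that of knockdown library 2 was 20480491 against 20251864. This scaling lowers every value of library 1 more than those of library 2. Its part in both differences was not tested. The median was -0.24 without knockdown library 1, -0.21 after quantile normalization, -0.30 on summed reads and -0.30 after removal of a trend with gene length and GC content. The nuclear subunits have a median exon length of 2324 bases, the mitochondrial coding genes one of 784 and all tested genes one of 4267. Across 10570 tested coding genes, longer genes had higher log2 fold changes (Spearman rho 0.45, as a description). The mitochondrial coding genes were thus the shorter set but had the higher log2 fold changes by median.

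By complex, the medians of the log2 fold changes were 0.22 mitochondrial and -0.35 nuclear for the NADH dehydrogenase of complex I. They were 0.08 and -0.52 for complex III, 0.17 and -0.56 for complex IV, and 0.06 and -0.45 for complex V, in the same order. The 4 nuclear subunits that follow were picked from the limma-voom calls by the size of their log2 fold change. Each has the lowest log2 fold change of its complex, from -0.86 for NDUFS6 to -0.72 for COX6A1, so they are extremes and not typical members. NDUFS6, an accessory subunit of complex I, fell by limma-voom, with 27.0 and 43.1 FPKM in the knockdown libraries, against 68.4 and 57.7 FPKM in the controls (adjusted p = 0.0275). UQCRQ of complex III stood at 37.3 and 56.9 FPKM in the knockdown libraries, against 85.6 and 72.7 FPKM in the controls (adjusted p = 0.0309 by limma-voom). COX6A1 of complex IV stood at 39.3 and 53.9 FPKM in the knockdown libraries, against 84.4 and 69.7 FPKM in the controls (adjusted p = 0.0277 by limma-voom). ATP5ME of complex V stood at 13.2 and 20.2 FPKM in the knockdown libraries, against 31.7 and 25.8 FPKM in the controls (adjusted p = 0.0368 by limma-voom). All 4 were lower in both knockdown libraries, and all 4 lost the call without knockdown library 1 and without control 1. None of the 4 was called by limma-trend, where their adjusted p-values ran between 0.143 and 0.153.

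**Figure D5:**
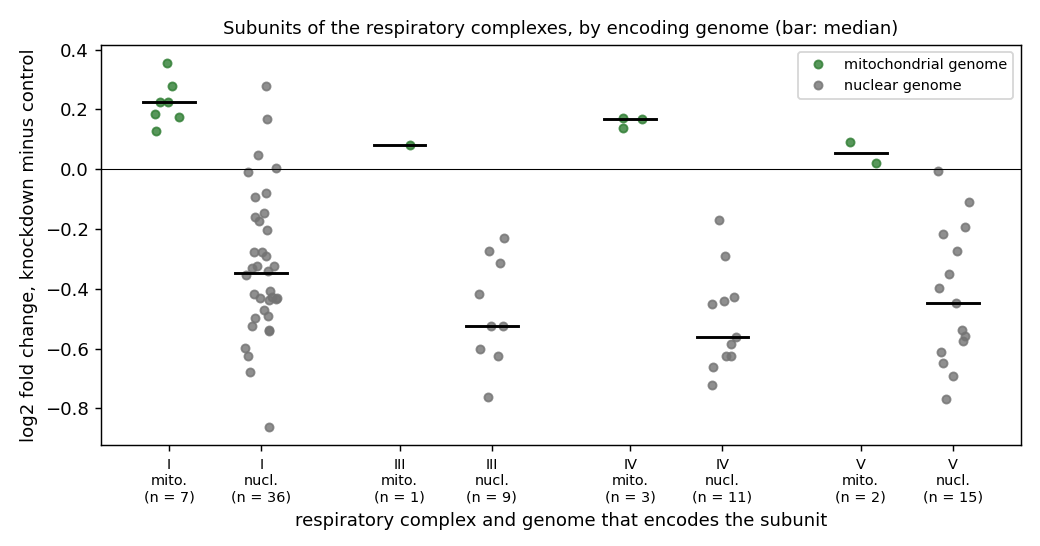
Log2 fold change of knockdown over control for each tested subunit of complexes I, III, IV and V, split by the genome that encodes it, with the median as a bar and points spread sideways for visibility. The mitochondrial medians of 0.22, 0.08, 0.17 and 0.06 lie above 0 and the nuclear medians of -0.35, -0.52, -0.56 and -0.45 below it.

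Set against each other within a library, mitochondrial over nuclear subunit FPKM was 12.3 and 10.8 in the knockdown libraries, against 7.09 and 7.76 in the controls. The mean ratio was 11.5 ± 1.08 in the knockdown libraries and 7.43 ± 0.478 in the controls (SD, n = 2 each), 1.55 times as high. The quotient of the group means was 1.54 for complex I, 1.48 for complex III, 1.65 for complex IV and 1.43 for complex V. For complex IV the ratio was 26.0 and 22.2 in the knockdown libraries, against 13.9 and 15.2 in the controls. For complex V it was 3.86 and 3.82 in the knockdown libraries, against 2.58 and 2.80 in the controls. In each of these 5 comparisons the groups were separate and the exact two-sided permutation p was 0.333, the smallest possible here before or after adjustment. This ratio does not depend on the library total, and it can be read from both of its parts. The mitochondrial sum was 34611 and 40057 FPKM in the knockdown libraries, against 33607 and 32683 FPKM in the controls. The nuclear sum was 2813 and 3716 FPKM in the knockdown libraries, against 4742 and 4210.0 FPKM in the controls.

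The machinery that serves the mitochondrial genome held 2 genes called by limma-voom and 0 by limma-trend, at shares near or below those of all tested genes, 7.74% and 0.205%. Of 16 listed genes of mitochondrial transcription, 14 were tested and 0 were called by either test, with 5 higher and 9 lower means and a median log2 fold change of -0.07. Limma-trend put 3 of the 14 at an unadjusted p under 0.05, against 23.4% of all tested genes. POLRMT, the mitochondrial RNA polymerase, stood at 20.1 and 26.9 FPKM in the knockdown libraries, against 31.95 and 30.15 FPKM in the controls, and limma-trend gave an adjusted p of 0.206. ESRRA, a nuclear receptor that regulates genes of oxidative metabolism, stood at 21.9 and 27.5 FPKM in the knockdown libraries, against 28.7 and 27.9 FPKM in the controls. Of 43 genes of RNA processing, stability and translation, limma-trend put 10 at an unadjusted p under 0.05, against 23.4% of all tested genes. Their median log2 fold change was -0.06. Limma-trend called 0 of the 43 and limma-voom called 1, against 7.74% of all tested genes by limma-voom. That gene was TUFM, the mitochondrial translation elongation factor Tu, at 76.8 and 99.3 FPKM in the knockdown libraries, against 134.4 and 127.4 FPKM in the controls (adjusted p = 0.0348 by limma-voom). Its call was lost without knockdown library 1, without control 1 and without control 2.

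Of 16 tested genes of mitochondrial DNA maintenance, limma-trend called 0 and limma-voom called 1, again against 7.74% of all tested genes, and the median was -0.09. At an unadjusted p under 0.05 limma-trend counted 8 of the 16, against 23.4% of all tested genes. POLG, the catalytic subunit of the mitochondrial DNA polymerase, stood at 61.2 and 72.3 FPKM in the knockdown libraries, against 135.0 and 154.2 FPKM in the controls. Its log2 fold change was -1.11 on the log2(FPKM + 1) scale, and its adjusted p was 0.0811 with limma-trend and 0.00367 with limma-voom. By limma-voom the call held when any 1 library was left out, with adjusted p-values between 0.00508 and 0.0278. Across the 20 alternatives its adjusted p ran between 0.00367 and 0.292. The amount of mitochondrial DNA was not measured.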

How the data were processed

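RNA from 4 libraries of the J-gammal line was sequenced, 2 labelled as FYB1 knockdown and 2 as untreated controls, and grouped by those labels. Reads were aligned to hg38 with HISAT2 2.0.5, per the submitters' processing notes. The sources used here do not give the counting program. The authors deposited 1 table of FPKM values for 28274 genes, and all identifiers matched GENCODE 29. Whole reads were recovered from the deposited FPKM, since 100% of values were whole multiples of 1 read per gene length within 0.01 of a read. Intervals of counting error are not given, because reads without molecular identifiers are not independent molecules.

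The 13172 genes that averaged 1 FPKM or more were tested on log2(FPKM + 1) by limma-trend (limma 3.58.1, R 4.3.3) with Benjamini-Hochberg adjustment over all of them and a threshold of 0.05. A fold change on this scale understates the change of low genes. As an alternative, limma-voom was run on recovered reads with library sizes set to the authors' totals, and called 1019 genes. Both were also run on simulated counts with set changes of 2 or 4 times. Those changes exceed the differences of the coding and ribosomal RNA members, so that run does not bear on these. The named genes were FYB1, every coding and ribosomal RNA member, and the 4 highest and 4 lowest transfer RNA genes by reads. Of each nuclear list, up to 4 called genes were named by the size of their log2 fold change, or else its 2 highest by mean. The 4 nuclear copies with most reads were named as well. The members and lists were chosen with earlier results of these data known. Length and GC trends were removed with mgcv 1.9.3.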

Additional observations from a re-analysis of the deposited data

How the results depend on the processing

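The 27 genes called over the whole table depended on the settings. The calls numbered 1019 with limma-voom, 781 with the replicate block, 76 on summed reads, 82 on summed nuclear reads, 45 after quantile normalization, 0 with every gene above 0 tested (3938 at an unadjusted p under 0.05), 181 at a mean of at least 5 FPKM, 90 at a mean of at least 20 reads, and 287 with length and GC trends removed. Leaving out 1 library gave 0 to 406 by limma-trend and 102 to 3877 by limma-voom, of which 136 without control 1 and 496 without control 2. Both counts of 0 came from leaving out a knockdown library, with 2205 and 4841 genes at an unadjusted p under 0.05.

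The calls among the members, 0 by both tests, numbered 4 with the replicate block (MT-TG, MT-TH, MT-TR and MT-TT), 2 after quantile normalization (MT-TC and MT-ND2), 1 at a mean of at least 5 FPKM (MT-TR), 0 to 8 by limma-trend with 1 library left out (8 transfer RNA genes without control 2), and 0 to 3 by limma-voom with 1 library left out (MT-ND5, MT-TP and MT-TG without knockdown library 2). The labels do not say that the replicate numbers pair the libraries, and the 2 pairs had a correlation of -0.21 between their deviations. The crossed pairing, chosen after seeing the data, gave 1910 calls, 4 of them members.

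The median log2 fold change of the members, 0.17, was 0.31 on summed reads, 0.32 on summed nuclear reads and 0.26 after quantile normalization. It was 0.077 with length and GC trends removed, and 0.14 to 0.26 with 1 library left out. For the 15 coding and ribosomal RNA genes alone, the median with those trends removed was 0.18, and 14 of them had the higher knockdown mean. The log2 ratio of the library shares, 0.31, was 0.38 on FPKM. From medians in place of sums, the log2 ratio of ribosomal RNA to coding genes was 0.091 and that of MT-ND6 to the other coding genes 0.14.

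With no call on either side, signs turned for these genes, each given with its range over the 4 fits that leave out 1 library: MT-RNR1 (-0.13 to 0.16), MT-ATP8 (-0.073 to 0.11, and -0.16 with length and GC trends removed), MT-ATP6 (-0.064 to 0.25), MT-ND3 (-0.017 to 0.37), MT-CYB (-0.066 to 0.23), MT-TA (-1.22 to 0.64) and the copies MTATP6P1 (-0.20 to 0.23) and MTCO1P12 (-0.28 to 0.15). On the authors' totals, the 5 coding and ribosomal RNA genes of that list were below 0 without knockdown library 2, MT-RNR1 also without control 2 and MT-ATP8 also without control 1. MT-CO3 was at -0.025 after quantile normalization. With length and GC trends removed, MT-TY was at -0.012, MT-TP at -0.0030 and ESRRA at 0.022. MTCO1P12 was at 0.067 on summed reads, 0.081 on summed nuclear reads, 0.076 after quantile normalization and 0.062 with length and GC trends removed. The causes of these shifts were not tested.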
